A study of Mus musculus with 12 samples.

Results

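The genes described here are 34 markers and working parts of enteroendocrine cells, the hormone-secreting cells of the gut epithelium, read in RNA-seq of mouse colonic crypts. They were chosen by name, as 5 granins, 9 peptide hormones, 3 genes of the serotonin pathway, 10 transcription factors, 4 prohormone processing genes, 1 nutrient receptor and 2 genes of secretory vesicles, and each name was found once among the 55471 genes counted. Crypts were released from the colon with EDTA, and 1 library was made from each of 12 female C57BL/6J mice of 8 weeks. This age and sex are given in the methods for mouse experiments in general. CBPWTp53-floxed mice carry wild-type CBP and a floxed p53 gene, and CBPAAp53-floxed mice carry the same floxed gene with a knock-in that replaces phosphorylated serines of CBP with alanines. In CBPWTp53ΔIEC and CBPAAp53ΔIEC mice the floxed gene is deleted by Villin-Cre. Each of these 4 groups held 3 mice. The knock-in is present in every cell of the body and was made in embryonic stem cells, for which the methods name different strains in different places, before backcrossing to C57BL/6, whereas Villin-Cre acts in the intestinal epithelium, enteroendocrine cells included.

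Enteroendocrine cells are scattered singly among absorptive and mucus cells. They arise from crypt progenitors that switch on Neurog3 for a short time, after which Neurod1 and a set of further transcription factors fix which hormone a cell makes. L cells of the distal gut make proglucagon (Gcg), peptide YY (Pyy) and, in the colon, insulin-like peptide 5 (Insl5). Enterochromaffin cells make serotonin through Tph1 and Ddc, and D cells make somatostatin (Sst). Hormones are stored with granins in dense granules and cut from larger precursors by convertases such as PCSK1. In bulk crypts, fewer enteroendocrine cells and less RNA per cell cannot be told apart.

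The deleted gene was read first. Trp53 was measured in TPM, a transcript level scaled to gene length and library size. It was at 24.6, 28.6 and 30.4 TPM in CBPWTp53-floxed and at 33.5, 30.7 and 23.3 TPM in CBPAAp53-floxed libraries. In p53ΔIEC libraries it was at 5.44, 3.26 and 4.15 TPM with wild-type CBP and at 5.05, 4.66 and 6.13 TPM with CBPAA, so every library was on the side of its label.

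Several libraries stood apart from the rest of their group. Defa24, a defensin of Paneth cells, which the small intestine has and the normal mouse colon lacks, was at 471 TPM in CBPAAp53-floxed replicate 2, 8290 TPM in CBPWTp53ΔIEC replicate 1, and 1079 and 1913 TPM in CBPAAp53ΔIEC replicates 1 and 3. No other library exceeded 23.1 TPM, and all 3 CBPWTp53-floxed libraries were listed at 0. Lyz1, another Paneth cell gene, and Apoa1, an apolipoprotein of small intestinal enterocytes, were high in the same 4 libraries (Lyz1 from 122 to 2281 TPM, Apoa1 from 142 to 1704 TPM). Ang4, the most abundant gene of the Paneth cell list, did not follow them and was highest in CBPAAp53-floxed replicate 3, at 11777 TPM. The number of members called, and in the 4 comparisons between groups their directions, are therefore also given without these 4 libraries, which leaves CBPAAp53ΔIEC with 1 library whose spread is assumed to be that of the other groups. The part of small intestinal material in the enteroendocrine values was not tested.

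The labelled tissue was read against the hormones themselves. Distal hormones were abundant, with means over the 12 libraries of 127.3 TPM for Pyy, 63.4 TPM for Insl5 and 52.1 TPM for Gcg. Gip, the hormone of K cells of the upper small intestine, had 1 read in all 12 libraries together, in CBPAAp53ΔIEC replicate 1, one of the 4 libraries above. A count of 0 allows up to 3 reads, which is between 0.166 and 0.268 CPM, counts scaled to library size, at these depths of 11177430 to 18029125 reads per library. Ghrl, the hunger hormone ghrelin, had 2 to 12 reads per library, and Cck, cholecystokinin of I cells, lay between 0.270 and 4.34 TPM. Neither Ghrl nor Cck was highest in a library with over 100 TPM of Defa24, as both peaked in CBPWTp53ΔIEC replicate 3. Sct, secretin of S cells, which is outside the 34 genes and was the most abundant of the 5 hormones listed for the small intestine, was highest in a library of that kind. It was at 98.0, 64.9 and 92.2 TPM in CBPWTp53-floxed, 67.6, 155 and 68.3 TPM in CBPAAp53-floxed, 139.6, 110.0 and 141 TPM in CBPWTp53ΔIEC and 175, 96.4 and 101 TPM in CBPAAp53ΔIEC libraries. The library with much Defa24 was thus well above its group mates in CBPAAp53-floxed, and in the p53-deleted groups only replicate 1 of CBPAAp53ΔIEC stood so. Markers of enteric neurons, which share granins, Snap25 and Tac1 with enteroendocrine cells, summed to between 2.15 and 4.06 TPM over 16 genes, with Ret as the most abundant at 0.802 TPM. Smooth muscle markers summed to at most 1.15 TPM and fibroblast markers to at most 1.61 TPM, while Krt8, a keratin of all gut epithelium, averaged 5219 TPM.

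Granins and hormones carried most of the enteroendocrine signal by level. Chgb (chromogranin B, chromosome 2 of GRCm38, 132781278 to 132795079, plus strand) was the most abundant member at 232 ± 53.3 TPM (SD, n = 12), which was 31.2% of the summed TPM of the 34 genes. Pyy gave 17.2% and Chga, chromogranin A, 16.3%. Insl5, Gcg, Sst (24.4 TPM), Ddc (20.9 TPM), Nts (neurotensin, 20.7 TPM), Tph1 (15.1 TPM), Pam (14.2 TPM) and Pcsk1 (12.3 TPM) came next. Among neighbours in this order, Chgb and Pyy, Chga and Insl5, and Gcg and Sst differed by more than either SD over the libraries. All other neighbours differed by less than the larger of their SDs, so their order is within the spread between mice. The transcription factors were far lower, from Neurod1 at 3.66 TPM and Insm1 at 2.86 TPM down to Pax6 at 0.192 TPM, and the fatty acid receptor gene Ffar1 was at 0.463 TPM with 5 to 17 reads per library. Pcsk2, the convertase that neurons and many endocrine cells pair with Pcsk1, had 1 read in all.

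Among members that passed the filter on low counts, the values that varied most between libraries were those of Cck (coefficient of variation 68.8%), Neurog3 (54.2%), Pax4 (46.4%) and Nkx2-2 (45.7%). These genes had few reads, with 2 to 29 for Cck, 2 to 37 for Neurog3, 3 to 20 for Pax4 and 5 to 30 for Nkx2-2. Neurog3, the factor that starts the lineage, was at 3.13, 1.64 and 1.52 TPM in CBPWTp53-floxed, 1.08, 2.23 and 0.231 TPM in CBPAAp53-floxed, 1.07, 2.79 and 4.32 TPM in CBPWTp53ΔIEC and 1.77, 3.10 and 1.89 TPM in CBPAAp53ΔIEC libraries. Its exons overlap Fam241b on the other strand. Pax4, a factor of early enteroendocrine cells, was at 0.789, 2.11 and 1.66 TPM in CBPWTp53-floxed, 0.556, 1.47 and 0.401 TPM in CBPAAp53-floxed, 0.961, 1.62 and 2.03 TPM in CBPWTp53ΔIEC and 1.41, 2.66 and 1.70 TPM in CBPAAp53ΔIEC libraries. Nkx2-2, another such factor, whose exons overlap the antisense gene Nkx2-2os, was at 1.35, 1.38 and 1.04 TPM, then 0.769, 1.07 and 0.336 TPM, then 0.483, 1.57 and 1.83 TPM and then 1.87, 2.01 and 0.796 TPM in the same order of groups. All 3 factors were lowest in replicate 3 of CBPAAp53-floxed. Cck, which overlapped among the p53-deleted groups, was at 1.82, 2.56 and 4.34 TPM in CBPWTp53ΔIEC and 1.57, 2.66 and 0.270 TPM in CBPAAp53ΔIEC libraries.

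Slc18a1, the monoamine transporter that loads serotonin into vesicles, varied least, at 16.6%. Ddc, which turns the product of TPH1 into serotonin, was at 18.7, 22.04 and 20.7 TPM in CBPWTp53-floxed, 17.2, 17.9 and 15.4 TPM in CBPAAp53-floxed, 14.7, 28.8 and 27.7 TPM in CBPWTp53ΔIEC and 22.5, 25.6 and 19.3 TPM in CBPAAp53ΔIEC libraries. Syp, which encodes a protein of small secretory vesicles and whose exons overlap Gm14703 on the other strand, was at 1.49, 1.32 and 1.47 TPM, then 1.04, 1.53 and 1.15 TPM, then 1.26, 1.79 and 1.24 TPM and then 1.35, 1.59 and 0.979 TPM in that order. All 4 groups overlapped in Syp.

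CBP takes its name from CREB, a factor that binds the cAMP response element (CRE), and Sst is a textbook CREB target. The letters TGACGTCA, which read the same on both strands, were sought in RefSeq promoters of GRCm38.p6, from 250 bases before to 50 bases after each start. Of the 34 genes, 29 were matched by symbol, while Slc18a1, Insm1, Pax4, Cpe and Snap25 were not. The CRE stood in 5 of these 29 promoters (17.2%) and in 549 of 27025 genes of the table (2.03%). The E-box CANNTG, the motif of NEUROG3 and NEUROD1, stood in 24 of 29 (82.8%) and in 75% of all genes. The CRE and 11 bases on each side are shown 5′ to 3′ on the gene's strand, with the CRE in capitals, since its setting in these 5 genes can be set beside their values below.
Chgb: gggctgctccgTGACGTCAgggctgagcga
Scg2: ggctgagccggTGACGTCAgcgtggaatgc
Sst: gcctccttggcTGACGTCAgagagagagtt
Pax6: tctggccgccgTGACGTCAtccgcgcccgg
Pcsk1: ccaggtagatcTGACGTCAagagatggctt
The windows lie at chr2:132781559-132781588 (plus strand), chr1:79440076-79440105 (minus), chr16:23890874-23890903 (minus), chr2:105668809-105668838 (plus) and chr13:75089768-75089797 (plus), in the order shown. The first base of the CRE is 72, 68, 48, 76 and 78 bases before the RefSeq start. In the GENCODE annotation of GRCm38 the windows of Chgb, Scg2 and Sst fall within an exon of a longer transcript of the same gene, and those of Pax6 and Pcsk1 fall in no exon of theirs.

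The first comparison asked how loss of CBP phosphorylation sites bears on these genes while p53 is intact. Levels in CBPAAp53-floxed crypts were mostly below those in CBPWTp53-floxed crypts, and no single gene passed the test. The summed TPM of the 34 genes was 842, 833 and 820 in CBPWTp53-floxed libraries and 545, 716 and 513 in CBPAAp53-floxed libraries, so the groups did not overlap. TPM placed the median of all tested genes 0.11 lower on the log2 scale in CBPAAp53-floxed (a difference of -0.11) and 0.14 higher in CBPAAp53ΔIEC than in CBPAAp53-floxed, whereas in CPM with the library scaling of the test (TMM) these medians were 0.0048 and 0.02. Summed over the 31 genes that passed the filter on low counts, CPM was 773, 779 and 737 against 491, 713 and 594, again without overlap. Gip, Ghrl and Pcsk2 did not pass. Replicate 1 of CBPAAp53-floxed was the lowest of all 12 libraries for 13 of the 31 genes, replicate 3 for 6, and CBPAAp53ΔIEC replicate 3 for 7. In edgeR's quasi-likelihood test with Benjamini-Hochberg adjustment over all 14610 tested genes, 0 members were called, which took an adjusted p below 0.05 with a change of more than 0.5 log2 units, as were 0% of all genes. The smallest adjusted p of a member was 0.575 by edgeR. At an unadjusted p under 0.05 there were 5 members, all lower, beside 4.18% of all genes lower, and DESeq2 called 0 members and 0.205% of its genes. The log2 fold change was below 0 in 29 of 31 members, beside 48% of all genes, with a median of -0.39 beside 0.01 for all genes. In 11 members the groups did not overlap in CPM, all lower in CBPAAp53-floxed, beside 9.62% of all genes, and in TPM there were 14, beside 14.4%. These counts cover only the members with enough reads to be tested.

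Lists of other crypt cells and states were read beside this comparison. Of 10 genes of secretory fate, which act before cells become enteroendocrine or goblet cells, 7 had a log2 fold change below 0 (median -0.25). Spdef, Notch1 and Gfi1 were lower at an unadjusted p under 0.05, beside 4.18% of all genes lower, and Hes1 was higher at that threshold. Notch1 and Gfi1 were lower without overlap in CPM, beside 9.62% of all genes. These 10 genes summed to 542, 483 and 597 TPM in CBPWTp53-floxed and 496, 490 and 411 TPM in CBPAAp53-floxed libraries, with Atoh1 as the most abundant. All 10 genes of general epithelium, led by Krt8, were above 0 (median 0.22), and their summed levels overlapped. Of 18 proliferation genes, led by Pcna, 15 were above 0 (median 0.22) and 8 were higher without overlap in CPM, beside 9.75% of all genes, with sums of 234, 254 and 227 TPM against 324, 231 and 236 TPM. Goblet and tuft cells are the other secretory lineages here. Of 8 goblet cell genes, led by Zg16, 6 were above 0 (median 0.37), 3 were higher and 1 lower without overlap in CPM, and their summed levels overlapped. Of 9 tuft cell genes, led by Sh2d6, 7 were above 0 (median 0.23). All 11 Paneth cell genes, led by Ang4, were above 0 (median 5.88), and 5 were higher without overlap in CPM. Of 17 genes of small intestinal enterocytes, led by Fabp2, 14 were above 0 (median 0.32). The part of these lists in the enteroendocrine values was not tested.

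**Figure D1:**
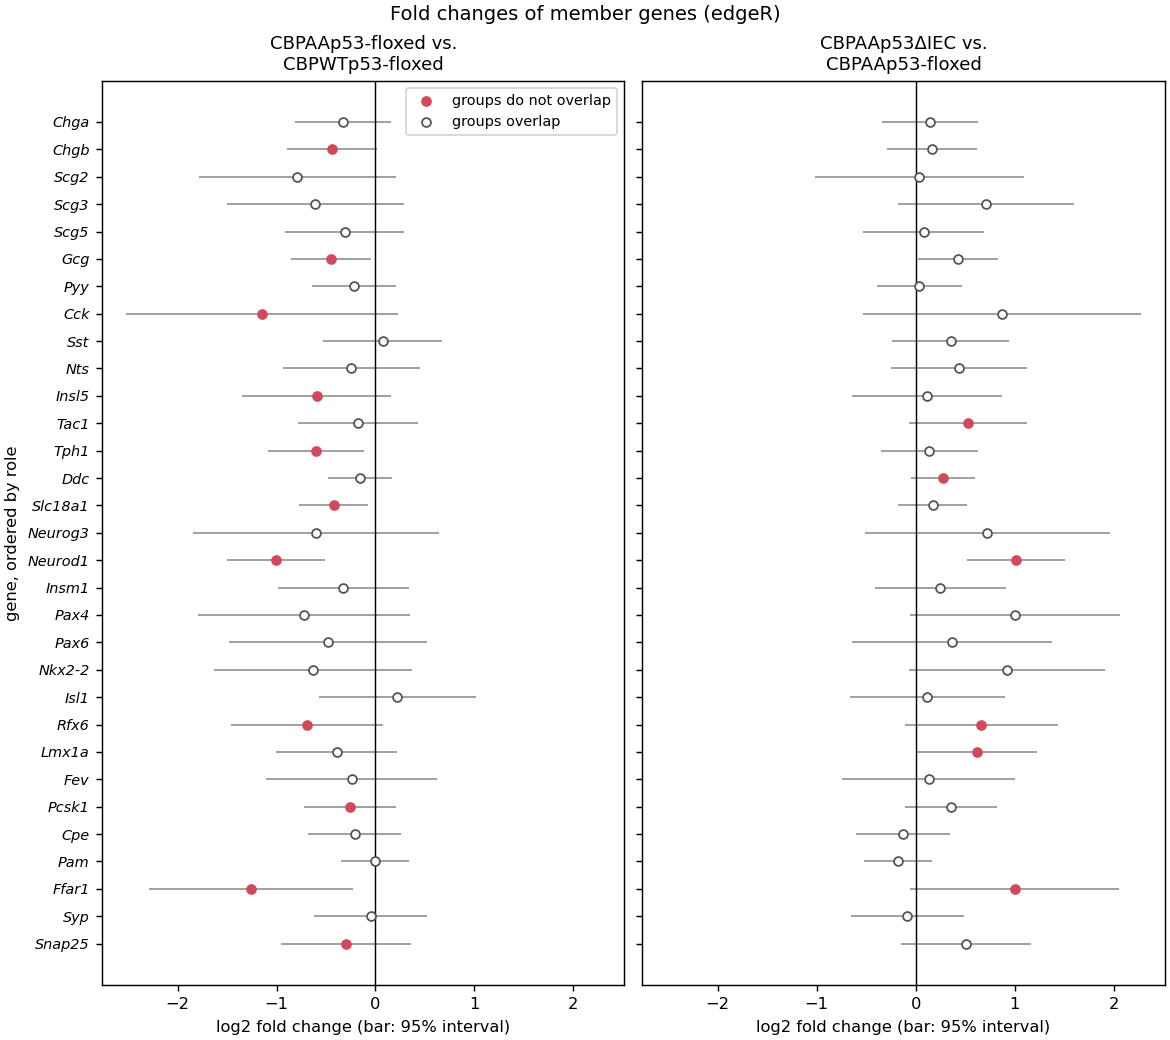
Log2 fold changes of the 31 tested members (x axis) with 95% intervals (bars), for CBPAAp53-floxed vs. CBPWTp53-floxed (left) and CBPAAp53ΔIEC vs. CBPAAp53-floxed (right), which share the CBPAAp53-floxed libraries. Filled points mark genes whose groups of 3 mice do not overlap in CPM, 11 on the left and 6 on the right; no member passed the adjusted threshold in either panel.

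Neurod1, which acts just after Neurog3 in the lineage, had the smallest p. It was at 4.18, 4.53 and 4.83 TPM in CBPWTp53-floxed and at 1.99, 2.59 and 1.56 TPM in CBPAAp53-floxed libraries. The groups were well apart, with a log2 fold change of -1.003 (SE 0.23, edgeR adjusted p = 0.575). Neurod1 (chromosome 2, 79452521 to 79456751, minus strand) shares exon bases with Cerkl on the same strand and Gm26755 on the other, and how the counting treated strand and shared bases was not given in the sources used here, so its reads are uncertain to that extent. Of the other factors, Rfx6, which L and K cells need, was at 1.54, 1.26 and 1.12 TPM in CBPWTp53-floxed and 0.802, 0.897 and 0.482 TPM in CBPAAp53-floxed libraries, again without overlap (log2 fold change -0.70, SE 0.36, edgeR adjusted p = 0.622). Over the 10 transcription factors, 9 log2 fold changes were below 0, with a median of -0.54, and Isl1 was the exception.

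Of the hormones, 6 of 7 tested had a log2 fold change below 0, and Gcg, Cck and Insl5 did not overlap. Gcg was at 58.5, 49.9 and 55.8 TPM in CBPWTp53-floxed and 32.8, 41.4 and 35.2 TPM in CBPAAp53-floxed libraries. Its log2 fold change was -0.45 (SE 0.19, edgeR adjusted p = 0.618). Cck was at 2.97, 1.40 and 1.15 TPM against 0.770, 0.918 and 0.444 TPM, from 3 to 17 reads per library (log2 fold change -1.15, SE 0.64, edgeR adjusted p = 0.637), and without CBPWTp53-floxed replicate 1 its log2 fold change was -0.66. Pyy overlapped between the groups, at 152, 135 and 133 TPM against 121, 137 and 75.0 TPM, and Sst had a log2 fold change of 0.07.

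The serotonin genes and the granins lay the same way. Tph1, the rate-limiting enzyme of serotonin synthesis outside the brain, was at 19.8, 19.5 and 18.7 TPM in CBPWTp53-floxed and 9.41, 13.9 and 11.4 TPM in CBPAAp53-floxed libraries (log2 fold change -0.60, SE 0.22, edgeR adjusted p = 0.618). Slc18a1 had a log2 fold change of -0.42, also without overlap. All 5 granins were below 0, and Chgb was at 259, 277 and 289 TPM against 143, 233 and 176 TPM (log2 fold change -0.44, SE 0.21, edgeR adjusted p = 0.618). Without CBPAAp53-floxed replicate 1 the log2 fold change of Chgb was -0.23. Of the genes with a CRE, Chgb, Scg2 (-0.79), Pax6 (-0.48) and Pcsk1 (-0.26) had a log2 fold change below 0 and Sst did not. Over all tested members, 29 of 31 were below 0. The groups overlapped in Scg2 and Pax6, and a link of the CRE to these values was not tested. Ffar1, a receptor for long-chain fatty acids, was at 0.765, 0.549 and 0.359 TPM against 0.241, 0.159 and 0.231 TPM, and with 5 reads in each CBPAAp53-floxed library its log2 fold change of -1.26 had an SE of 0.48.

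**Figure D2:**
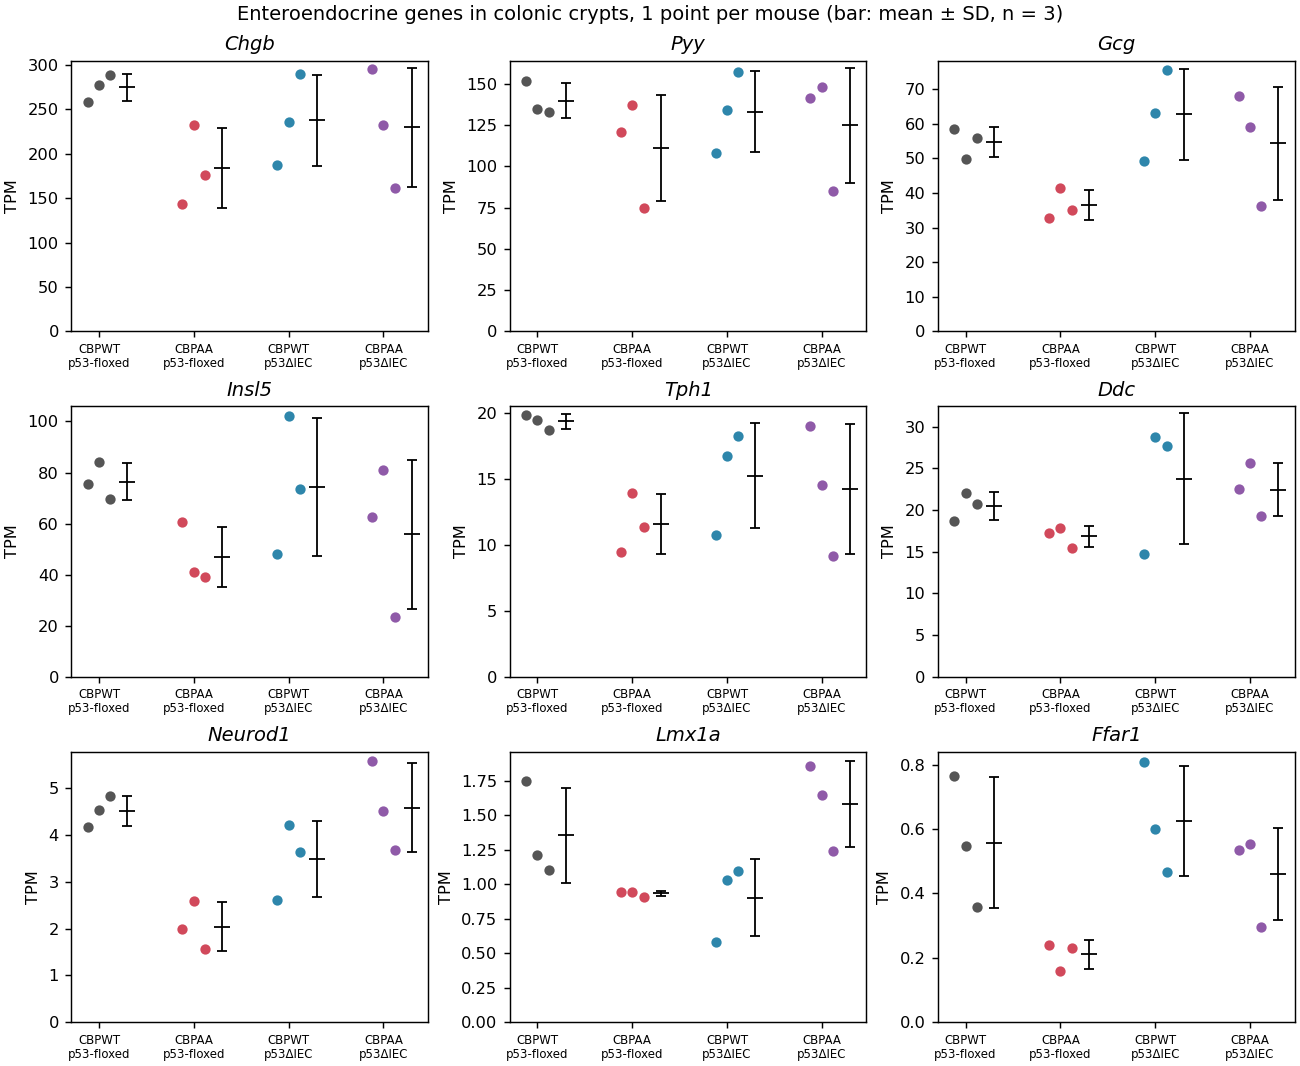
Levels in TPM (y axes, from 0) of 9 members in the 4 groups (x axes), with 1 point per mouse and the mean ± SD of 3 mice as a bar. All plotted genes but Pyy lie lower in TPM in every CBPAAp53-floxed mouse than in any CBPWTp53-floxed mouse. In CPM Ddc and Lmx1a overlap as well. CBPAAp53ΔIEC replicate 3 is the lowest of its group for all 9.

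Without the 4 libraries with over 100 TPM of Defa24, CBPAAp53-floxed kept its replicates 1 and 3, and edgeR called 3 members lower, beside 0.276% of 15208 genes in either direction. These were Chga (log2 fold change -0.65, edgeR adjusted p = 0.0116), Neurod1 (-1.24, adjusted p = 0.0372) and Tph1 (-0.77, adjusted p = 0.0292). The log2 fold change was then below 0 in 30 of 32 members, beside 49.7% of all genes, with a median of -0.55. The replicate left out had the highest summed level of its group, so that this count rests on the 2 lower libraries. Ang4 was at 5185 and 11777 TPM in these libraries and at 1875, 3159 and 3725 TPM in CBPWTp53-floxed, and its part in the result was not tested.

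The second comparison asked what deletion of p53 did while CBP was wild-type. The enteroendocrine genes showed no common direction, with 15 of 31 log2 fold changes above 0, beside 51.2% of all genes, and a median of -0.01. By edgeR 0 members were called, beside 460 of all genes (3.15%), and DESeq2 called 0 members beside 5.91%. At an unadjusted p under 0.05 there were 2 members, Pam lower and Sst higher, beside 20.9% of all genes. The groups did not overlap in CPM in 8 members, beside 30.8% of all genes, with Nts and Gcg higher and Pam, Lmx1a, Chgb, Neurod1, Slc18a1 and Tph1 lower. In TPM, Nts, Gcg, Chgb and Neurod1 overlapped and Sst did not, which left 5, beside 21.4% of all genes. In the same comparison 16 of 18 proliferation genes were called, all higher.

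The 7 hormones had a median log2 fold change of 0.48 in this comparison, beside -0.03 for the 10 transcription factors, and the difference was not tested. Nts, a peptide of distal L and N cells, was at 26.5, 16.8 and 12.5 TPM in CBPWTp53-floxed and 22.7, 31.2 and 31.9 TPM in CBPWTp53ΔIEC libraries, which overlapped in TPM and not in CPM (log2 fold change 0.65, SE 0.31, edgeR adjusted p = 0.257). Its log2 fold change was 0.998 without CBPWTp53-floxed replicate 1 and 0.41 without replicate 3. Pam, which amidates peptide hormones, was at 15.4, 17.0 and 15.1 TPM against 8.62, 12.6 and 14.9 TPM (log2 fold change -0.38, SE 0.16, edgeR adjusted p = 0.189). Pam shares exon bases with B230216N24Rik on the same strand. Lmx1a, a factor of enterochromaffin cells, was at 1.75, 1.21 and 1.10 TPM against 0.584, 1.03 and 1.09 TPM (log2 fold change -0.55, SE 0.29, edgeR adjusted p = 0.295), and without CBPWTp53-floxed replicate 1 its log2 fold change was -0.33. Slc18a1 was at 4.48, 4.64 and 4.02 TPM against 3.01, 3.59 and 3.47 TPM (log2 fold change -0.35, SE 0.16, edgeR adjusted p = 0.241). Replicate 1 of CBPWTp53ΔIEC, the library with the most Defa24, was the lowest of the 12 for both Pam and Lmx1a. Without the 4 libraries edgeR again called 0 members, beside 11.4% of all genes, although Ddc reached an adjusted p of 0.0147 with a log2 fold change of 0.37, under the cutoff on size. The log2 fold change was then below 0 in 14 of 32 members, beside 50.8% of all genes, with a median of 0.11.

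The third comparison asked what deletion of p53 did in CBPAA mice. Most members were higher in CBPAAp53ΔIEC than in CBPAAp53-floxed crypts, and no member passed the test by edgeR. This comparison shares the CBPAAp53-floxed libraries with the first, so its direction is not separate evidence. The summed TPM of the 34 genes was 902, 808 and 510 in CBPAAp53ΔIEC, and replicate 3 lay below every CBPAAp53-floxed library. In CPM over the 31 tested genes it was 792, 708 and 510, with replicate 3 above replicate 1 of CBPAAp53-floxed. The log2 fold change was above 0 in 28 of 31 members, beside 52.2% of all genes, with a median of 0.35 beside 0.01. By edgeR 0 members were called, beside 4 of all genes (0.0274%). At an unadjusted p under 0.05 there were 3 members, all higher, beside 7.19% of all genes higher. The groups did not overlap in CPM in 6 members, all higher, beside 7.86% of all genes, and in TPM in 8, beside 11.7%. DESeq2 gave an adjusted p to 17 members and called Neurod1 alone (log2 fold change 1.00, adjusted p = 0.0450), beside 0.615% of its genes.

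All 10 transcription factors had a log2 fold change above 0, with a median of 0.64, beside medians of 0.14 for the 5 granins and 0.43 for the 7 hormones. The difference between these roles was not tested. Neurod1 was at 5.58, 4.51 and 3.68 TPM in CBPAAp53ΔIEC libraries, above each CBPAAp53-floxed library (log2 fold change 1.01, SE 0.23, edgeR adjusted p = 0.320). Lmx1a was at 1.86, 1.64 and 1.24 TPM against 0.947, 0.941 and 0.911 TPM (log2 fold change 0.62, SE 0.28, edgeR adjusted p = 0.390). Rfx6 was at 1.30, 1.49 and 1.05 TPM in CBPAAp53ΔIEC libraries (log2 fold change 0.66, SE 0.36, edgeR adjusted p = 0.442). Without the 4 libraries with over 100 TPM of Defa24, the log2 fold change of Rfx6 was 1.08. Ffar1 had a log2 fold change of 1.00 (SE 0.49). Pax4 and Nkx2-2, factors of early enteroendocrine cells, had log2 fold changes of 1.01 and 0.92 with SEs of 0.49 and 0.46, and their groups overlapped. That of Pax4 was 1.85 without CBPAAp53-floxed replicate 2.

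**Figure D3:**
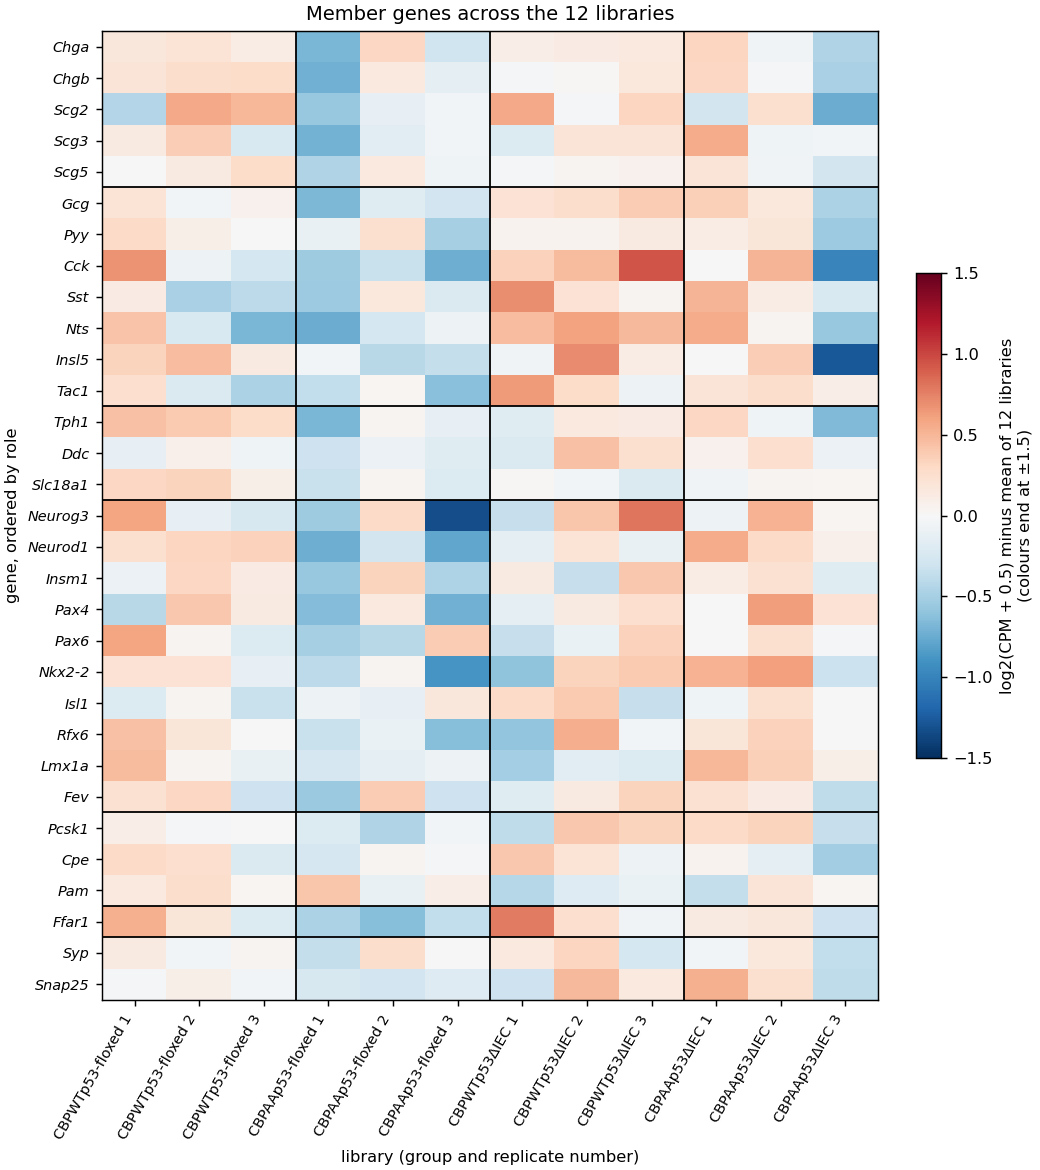
Each tested member (rows, ordered by role, with lines between roles) in each of the 12 libraries (columns), as log2(CPM + 0.5) minus the mean of the 12 libraries, with colours ending at ±1.5. CBPAAp53-floxed replicates 1 and 3 and CBPAAp53ΔIEC replicate 3 are blue over most rows, and they are among the 3 lowest libraries for 26, 17 and 15 of the 31 genes.

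Without the 4 libraries, CBPAAp53ΔIEC was left with replicate 2, and edgeR called 5 members higher, beside 6.92% of all genes in either direction. These were Gcg (log2 fold change 0.64, edgeR adjusted p = 0.0237), Ddc (0.51, adjusted p = 0.0323), Nkx2-2 (1.73, adjusted p = 0.0406), Pax4 (2.31, adjusted p = 0.0441) and Neurod1 (1.21, adjusted p = 0.0238). The libraries left out were the highest of CBPAAp53-floxed in summed TPM and both the highest and the lowest of CBPAAp53ΔIEC. The log2 fold change was then below 0 in 2 of 32 members, beside 49.7% of all genes, with a median of 0.52. Leaving out CBPAAp53ΔIEC replicate 3 alone gave 2 calls, Gcg (0.63, adjusted p = 0.0484) and Neurod1 (1.13, adjusted p = 0.0372), beside 2.19% of all genes. The proliferation genes, which had a median log2 fold change of 1.26 in this comparison, summed to 684, 662 and 267 TPM in CBPAAp53ΔIEC and to 324, 231 and 236 TPM in CBPAAp53-floxed libraries, so that the library lowest in enteroendocrine genes was also the lowest of its group in these. The 10 genes of secretory fate summed to 565, 598 and 485 TPM in CBPAAp53ΔIEC, and 7 were above 0 (median 0.24). Dll1, Notch1, Dll4 and Gfi1 were higher at an unadjusted p under 0.05, beside 7.19% of all genes higher. They were also higher without overlap in CPM, beside 7.86% of all genes. With all libraries kept, 10 of 11 Paneth cell genes were above 0 (median 2.32), none of them without overlap in CPM. Of 17 genes of small intestinal enterocytes, 12 were above 0 (median 0.38). Of the 8 goblet cell genes 6 were below 0 (median -0.18), as were 8 of 9 tuft cell genes (median -0.19) and 8 of the 10 genes of general epithelium (median -0.18). The part of these lists in the result was not tested.

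**Figure D4:**
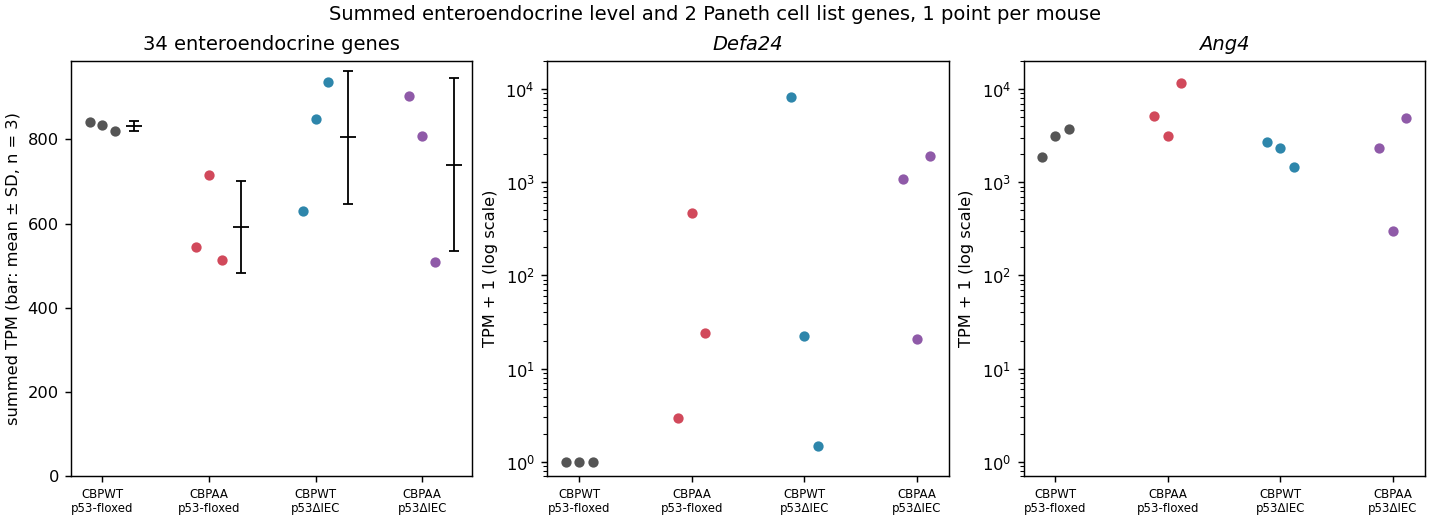
Summed TPM of the 34 genes (left, linear axis, bar for mean ± SD of 3 mice) and TPM + 1 of Defa24 and Ang4 (middle and right, log axes) in the 4 groups, with 1 point per mouse. The summed enteroendocrine level spans 510 to 935 TPM, and the 4 libraries with over 100 TPM of Defa24 lie at both high and low enteroendocrine levels.

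The fourth comparison set CBPAA against CBPWT crypts with p53 deleted. By edgeR 0 members were called, beside 1 of all genes (0.00684%), and DESeq2 called 0 beside 0.00369%. At an unadjusted p under 0.05 there was 1 member, Lmx1a, beside 3.57% of all genes, and it was also the 1 member without overlap in CPM, higher in CBPAAp53ΔIEC (log2 fold change 0.77, SE 0.28, edgeR adjusted p = 0.985), beside 4.76% of all genes higher. In TPM Lmx1a and Slc18a1 did not overlap, beside 3.17% of all genes higher, with Slc18a1 at 3.61, 3.85 and 3.65 TPM in CBPAAp53ΔIEC against at most 3.59 TPM in CBPWTp53ΔIEC. The log2 fold change was above 0 in 10 members, beside 47.7% of all genes, with a median of -0.11. Neurod1, with a log2 fold change of 0.35, had a 95% interval from -0.13 to 0.83 (0.20 without CBPAAp53ΔIEC replicate 1), and Chgb, with -0.08, one from -0.53 to 0.37. Without the 4 libraries, 0 members were called beside 0.0526% of all genes, and the log2 fold change was below 0 in 17 of 32 members, beside 51.7% of all genes, with a median of -0.02.

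Contrasts over all 4 groups gave 0 calls among members by edgeR and by DESeq2. For p53 deletion averaged over both CBP genotypes, 3.5% of all genes were called (5.06% by DESeq2), and 6 members had an unadjusted p under 0.05, with Gcg, Sst, Nts, Tac1 and Ddc higher and Pam lower, beside 21.9% of all genes. Tac1, the precursor of substance P, had the smallest adjusted p of these (log2 fold change 0.50, SE 0.20, edgeR adjusted p = 0.157). For CBPAA averaged over both p53 states, 0.00684% of all genes were called (0.0184% by DESeq2), and Scg2, Gcg, Cck, Tph1 and Ffar1 were lower at an unadjusted p under 0.05, beside 1.15% of all genes lower. For the interaction, which is the p53 effect in CBPAA minus that in CBPWT mice, 0.00684% of all genes were called (0.215% by DESeq2), and 3 members had an unadjusted p under 0.05, Neurod1, Lmx1a and Slc18a1, all positive, beside 5% of all genes positive. The interaction of Neurod1 was 1.36 on the log2 scale (SE 0.32, edgeR adjusted p = 0.482). Without the 4 libraries, the p53 contrast called Neurog3 (1.41), Cck (1.42), Pax4 (1.21) and Nkx2-2 (1.04), all higher on the log2 scale, beside 11.1% of all genes, while the CBP contrast and the interaction called 0 members, beside 0.00658% and 0.23% of all genes.

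A further list of 57 enteroendocrine genes outside the 34 was read for comparison, of which 42 passed the filter. In CBPAAp53-floxed vs. CBPWTp53-floxed 0 were called by edgeR and by DESeq2, 6 had an unadjusted p under 0.05, and 33 of 42 log2 fold changes were below 0, beside 48% of all genes, with a median of -0.19. Of these 6 genes 5 were lower, beside 4.18% of all genes lower, and 1 was higher. In CBPAAp53ΔIEC vs. CBPAAp53-floxed 0 were called by edgeR and by DESeq2, 7 had an unadjusted p under 0.05, 4 of them higher, beside 7.19% of all genes higher, and 25 of 42 log2 fold changes were above 0, beside 52.2% of all genes, with a median of 0.11. In CBPWTp53ΔIEC vs. CBPWTp53-floxed 2 of 42 were called, beside 3.15% of all genes, and DESeq2 called 4, beside 5.91%. Without the 4 libraries these comparisons had 0, 5 and 5 calls among 45 tested genes of the list in the order given here, beside 0.276%, 6.92% and 11.4% of all genes. Insrr, the insulin receptor-related receptor, fell by 0.90 on the log2 scale (SE 0.16, edgeR adjusted p = 0.0248). It was at 11.7, 12.6 and 18.2 TPM in CBPWTp53-floxed and 5.87, 8.45 and 8.00 TPM in CBPWTp53ΔIEC libraries, without overlap, and the call held without the 4 libraries (adjusted p = 0.00326). Mlxipl, a glucose-responsive factor also expressed by absorptive cells, rose by 0.61 (SE 0.15, edgeR adjusted p = 0.0463), from 12.9, 12.4 and 14.2 TPM to 14.9, 20.1 and 24.8 TPM, and its call held too (adjusted p = 0.000904). Its exons overlap Gm43500 on the other strand. The most abundant genes of this list were Rab3d (155 TPM), a vesicle GTPase that other secretory cells also use, and Sct (109.2 TPM), whose values by library are given above.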

How the data were processed

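RNA-seq of 12 colonic crypt libraries was read from 1 deposited table. The authors deposited raw read counts per gene and TPM per gene, beside the outcome of comparisons they had run (fold changes, p-values), which was not used. The submitters' processing notes name fastp 0.20.0, HISAT2 2.1.0, featureCounts of Subread 2.0.1 and GRCm38. The strand setting of the counting is not given in the sources used here. For testing, edgeR 4.0.16 under R 4.3.3 took the counts of genes kept by filterByExpr (minimum 10), scaled libraries by TMM and fitted the 4 groups by robust quasi-likelihood, with Benjamini-Hochberg adjustment over all 14610 genes. A gene was called where the adjusted p was below 0.05 and its change exceeded 0.5 log2 units. Overlap of groups was read in CPM, and SEs came from the F statistic. DESeq2 1.42.0 was an alternative. On simulated counts of CBPWTp53ΔIEC vs. CBPWTp53-floxed (14465 genes), edgeR recovered 176 of 200 changed genes with 7 false calls. The planted changes were larger than any member's log2 fold change with all libraries kept. How often changes of the size seen in members would be called was not tested. The members, lists and tests were chosen with earlier results of these data known. Genes with values in every library were, by rule, the most abundant of each role, up to 4 per comparison with the largest fold change among those without overlap, and the 4 most variable; Gcg, Tph1 and Sst are named beside them, chosen after their values were seen. Gene positions are from GENCODE M21, promoters from RefSeq (GRCm38.p6). Figures were drawn with matplotlib 3.10.9.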

Additional observations from a re-analysis of the deposited data

Results flagged for a closer look

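Neurod1 and Lmx1a lay in opposite directions with p53 deletion in the CBP genotypes, without overlap between groups in CPM in either genotype. All CBPWTp53ΔIEC mice were below all CBPWTp53-floxed mice, and all CBPAAp53ΔIEC mice were above all CBPAAp53-floxed mice. Both genes were picked for this pattern. Groups did not overlap in CPM, in either direction, in 30.8% of all genes in CBPWT mice and in 15% in CBPAA mice. The share of all genes with the opposite pattern is not given here, so how unusual it is cannot be read. In TPM the pattern of Lmx1a stayed, while Neurod1 overlapped in CBPWT mice, since CBPWTp53ΔIEC replicate 2 was at 4.22 TPM and CBPWTp53-floxed replicate 1 at 4.18 TPM. Slc18a1 had this pattern in TPM only, since CBPAAp53ΔIEC and CBPAAp53-floxed overlapped in CPM, and its difference between the effects was 0.52 (edgeR adjusted p = 0.482). The difference between the effects was 1.36 on the log2 scale for Neurod1 and 1.16 for Lmx1a, and the interaction term of edgeR gave an adjusted p of 0.482 for each, so neither passed the test. Neurod1 had 22 to 88 reads per library and Lmx1a 10 to 34.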

How the results depend on the processing

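No member was called by edgeR under DESeq2's size factors, no filter, at least 10 counts in every library, the replicate number as a block (0 in each of 7 contrasts), the compared groups alone or no fold cutoff. DESeq2 called 1 member in CBPAAp53ΔIEC vs. CBPAAp53-floxed, and leaving out 1 library at a time gave 0 to 2 there and 0 elsewhere. Leaving out the 4 libraries with over 100 TPM of Defa24, chosen after seeing the data, gave 3 calls in CBPAAp53-floxed vs. CBPWTp53-floxed, 5 in CBPAAp53ΔIEC vs. CBPAAp53-floxed and 4 for p53 deletion averaged over CBP genotypes. The cause was not tested. Deviations of same-numbered libraries correlated between -0.53 and 0.55 (median -0.03, 18 pairs). Those of libraries with different numbers correlated between -0.66 and 0.64 (median -0.0026, 36 pairs). The extremes of the latter involve CBPWTp53ΔIEC replicate 1, the library with the most Defa24. Whether replicate numbers pair mice therefore cannot be read from these correlations. The deposited library names also carry a further number after the genotype, and pairing or blocking by it was not tested.

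No member was called by edgeR with all libraries, so every sign change given here is of a log2 fold change that was not called. Signs were followed only for the genes chosen by rule to have values in every library. Other members, Sst and Isl1 among them, were not followed. In CBPAAp53-floxed vs. CBPWTp53-floxed, Pam turned from -0.00085 to 0.0038 (DESeq2), 0.0049 (DESeq2's size factors), 0.0056 (replicate block) and 0.12 (without the 4 libraries). In CBPWTp53ΔIEC vs. CBPWTp53-floxed, Pax4 turned to 0.044 under the replicate block, and without the 4 libraries Ffar1 was -0.093, Pax4 0.11 and Rfx6 0.11. Without these libraries Syp was 0.38 in CBPAAp53ΔIEC vs. CBPAAp53-floxed, and Ffar1 was 0.10, Pyy 0.090 and Syp 0.11 in CBPAAp53ΔIEC vs. CBPWTp53ΔIEC.

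Ranges with 1 library left out were likewise followed only for the genes chosen by rule. Those that crossed 0 in CBPAAp53-floxed vs. CBPWTp53-floxed were Nts from -0.49 to 0.11, Pam from -0.16 to 0.11 and Syp from -0.25 to 0.12. In CBPWTp53ΔIEC vs. CBPWTp53-floxed they were Ffar1 from -0.11 to 0.53, Nkx2-2 from -0.17 to 0.34, Pax4 from -0.27 to 0.30, Pyy from -0.10 to 0.026, Rfx6 from -0.62 to 0.10 and Syp from -0.11 to 0.23. In CBPAAp53ΔIEC vs. CBPAAp53-floxed they were Chgb from -0.044 to 0.37, Pyy from -0.13 to 0.24 and Syp from -0.26 to 0.11. In CBPAAp53ΔIEC vs. CBPWTp53ΔIEC they were Chgb from -0.29 to 0.10, Ddc from -0.26 to 0.052, Neurog3 from -0.56 to 0.094, Nkx2-2 from -0.052 to 0.55, Pyy from -0.27 to 0.066 and Rfx6 from -0.13 to 0.59. The genes chosen by rule had 31 log2 fold changes over 0.3 in size in the pairwise comparisons, a number unrelated to the 31 tested members. Of these, 18 moved by over 1.5 times with 1 library left out, 11 without the 4 libraries and 0 under any other setting. Low counts limit Cck, Neurog3, Pax4, Nkx2-2 and Ffar1, whose SEs were 0.42 to 0.65 in the pairwise comparisons, and intervals cover these mice only.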
